A study of Mus musculus with 8 samples.

Results

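The genes described here encode the NF-κB transcription factor subunits and the inhibitors and feedback proteins that act on them, measured in brain microvessels of newborn mice. They were the 10 genes Nfkb1, Nfkb2, Rel, Rela, Relb, Nfkbia, Nfkbie, Nfkbiz, Tnfaip3 and Bcl3, each taken through every probe set annotated to that symbol alone. Of the 45101 probe sets in the table, 18 met this rule and covered 9 of the 10 genes, out of 18194 genes in all with such a probe set. The annotation used here gave no such probe set for Nfkb1, which was not analysed here. RNA came from microvessel fragments, with their attached pericytes, captured from dissociated brains by beads carrying an antibody to PECAM, a protein of endothelial cells and of some blood cells. The 4 mutant brains carried the D849V knock-in allele of Pdgfrb, which leaves the PDGF receptor beta of pericytes active without ligand, and the 4 control brains were wild type. All 8 mice were of postnatal day 1 and of a mixed 129S/J background, and each brain gave 1 array. Whether the mutants carried 1 or both copies of the allele was not stated.

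NF-κB is a family of dimers that bind κB sites in DNA and switch on genes of inflammation, cell survival and immune defence. In resting cells IκB proteins hold most dimers in the cytoplasm until receptors for TNF, interleukins or microbial products activate the IKK kinases, which mark IκB for destruction. Among the genes switched on are those of IκB proteins and of the ubiquitin-editing enzyme Tnfaip3, which end the signal, so that their transcripts are often read as a sign of recent NF-κB activity. In vessels, endothelial cells, pericytes and attached macrophages all carry this pathway.

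The DNA just upstream of 3 of the feedback genes is shown because Nfkbie, the member that rose, can then be set beside Nfkbia and Tnfaip3, feedback genes that did not pass the test. Each line gives the 250 bases before the annotated gene start, read along the gene, from RefSeq on build GRCm38.p6, with every match to the decameric κB consensus, on either strand, in capitals.
Nfkbie, chr17:45555450-45555699, plus strand: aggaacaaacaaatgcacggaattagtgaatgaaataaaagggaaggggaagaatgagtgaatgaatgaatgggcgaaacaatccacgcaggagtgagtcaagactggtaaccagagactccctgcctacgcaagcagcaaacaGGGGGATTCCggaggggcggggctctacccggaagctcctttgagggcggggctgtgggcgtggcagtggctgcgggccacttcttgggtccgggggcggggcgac
Nfkbia, chr12:55492648-55492897, minus strand: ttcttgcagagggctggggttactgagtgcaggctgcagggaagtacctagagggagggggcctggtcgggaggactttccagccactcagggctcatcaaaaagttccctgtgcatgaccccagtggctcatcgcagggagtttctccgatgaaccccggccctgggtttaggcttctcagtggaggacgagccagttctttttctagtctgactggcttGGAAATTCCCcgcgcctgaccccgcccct
Tnfaip3, chr10:19015411-19015660, minus strand: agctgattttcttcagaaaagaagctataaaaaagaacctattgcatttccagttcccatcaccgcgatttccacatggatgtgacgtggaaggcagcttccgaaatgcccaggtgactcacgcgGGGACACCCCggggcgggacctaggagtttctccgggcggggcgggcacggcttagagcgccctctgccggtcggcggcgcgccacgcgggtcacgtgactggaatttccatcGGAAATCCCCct
Nfkbie had 1 match, Nfkbia 1 and this start of Tnfaip3 2, while the other start of Tnfaip3, not shown, had 0. Promoter sequences were at hand for 7 of the 10 genes, in 10 windows, and 5 of these genes (Nfkb2, Rel, Nfkbia, Nfkbie and Tnfaip3) had a κB match in at least 1 window. Counted by window, a match was present in 7 of the 10, and in 7.25% of the 32851 promoter windows of the same length in the table. The core of the interferon-stimulated response element, which reads GAAA, then NN, then GAAA on either strand, was absent from all 10 windows and present in 2.98% of all windows. The core of the gamma-interferon activated site, TTCNNNGAA, was present in 1 window, of Nfkb2, where it overlapped no κB match, and in 7.02% of all windows. These are matches of letters within these windows only and say nothing of binding.

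The preparation carried strong vessel signals. All 12 endothelial and all 10 pericyte markers examined were bright enough to test. The mean log2 level of the endothelial list was 11.03 to 11.55 on mutant arrays and 11.43 to 11.84 on control arrays. Neural signal was present too, since all 8 neuron and all 8 astrocyte and radial glia markers were also bright enough to test. The neuron list averaged 7.74 to 8.78 on mutant arrays and 7.4 to 8.41 on control arrays. For the astrocyte and radial glia list these ranges were 8.73 to 10.39 and 9.21 to 9.77. Pdgfrb averaged 11.84 ± 0.21 in mutants against 12.85 ± 0.05 in controls on its brighter probe set (SD, n = 4 a group; limma adjusted p = 0.00132). The call was lost when its probe sets were averaged (-0.46, limma adjusted p = 0.144) and with its other probe set (0.09, limma adjusted p = 0.876). A substitution need not alter a transcript's level, so Pdgfrb gives no check of the genotypes. Of 11446 genes bright enough to test, 304 rose and 220 fell in mutant microvessels, and the median difference was -0.11 on the log2 scale. Of these genes 69.1% had a negative difference, a shift to keep in view beside small differences.

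Among the members, Nfkbie rose and no other tested gene passed. Nfkbie encodes IκB epsilon, an inhibitor that holds NF-κB dimers in the cytoplasm, and its level was 2.19-fold higher in mutant microvessels. Of the 9 genes with a probe set, 8 were bright enough to test in at least 1 probe set, and of these 1 rose and none fell, where 2.66% of all tested genes rose and 1.92% fell, 4.58% in all (limma with Benjamini-Hochberg adjustment over all 11446 genes, threshold 0.05). At an unadjusted limma p under 0.05 were 2 members, Nfkbie and Rela, where 2363 of all 11446 tested genes had such a p. These same 2 were the members whose mutant and control arrays did not overlap, where 14.5% of all tested genes did not overlap. Taken singly, 15 of the 18 probe sets were bright enough to test, and 1 rose and none fell, against 1.85% that rose and 0.78% that fell, 2.63% in all, of the 22310 tested probe sets. At that level 2 of the 15 did not overlap between the groups, where 11.3% of all probe sets did not. The median difference of the 8 genes was -0.02, against -0.11 over all tested genes. Centring the arrays on the median of the tested genes, a setting added after seeing the data, gave differences of -0.15 for Rela, -0.16 for Nfkbiz and -0.10 for both Nfkbia and Tnfaip3. It gave 0.25 for Nfkb2, 0.36 for Relb, 0.27 for Bcl3 and 1.22 for Nfkbie, and again only Nfkbie passed. In bulk RNA, fewer cells of a type and less RNA per cell cannot be told apart, and this holds for every difference given here.

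**Figure D1:**
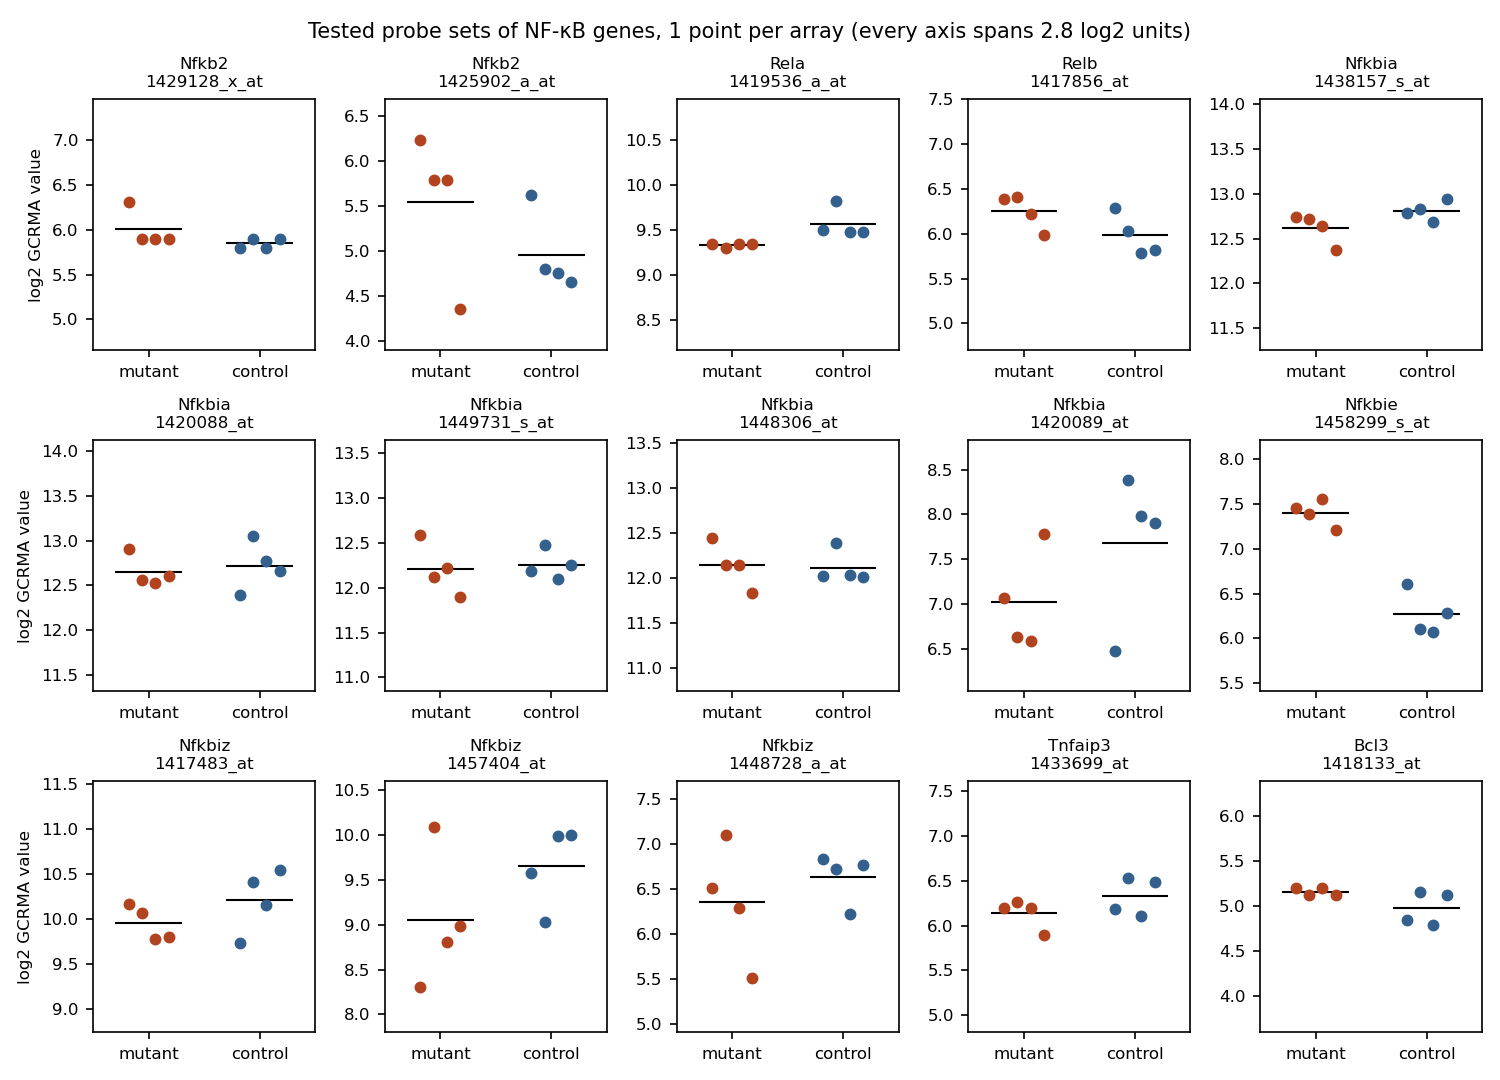
Log2 GCRMA value (vertical axes, each spanning 2.8 log2 units) of the 15 tested probe sets on the 4 mutant arrays (left in each panel) and the 4 control arrays (right), with horizontal bars at the group means. The mutant and control points are apart for Nfkbie, by more than 0.5 log2 units, and narrowly apart for Rela, while they overlap in the other 13 panels.

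The subunits are described first. Rela encodes the main activating subunit of the canonical pathway. It read 9.35, 9.30, 9.35 and 9.34 on mutant arrays 1 to 4, against 9.50, 9.82, 9.48 and 9.48 on control arrays 1 to 4. All mutant arrays lay below all control arrays, with the highest mutants at 9.35 and the lowest controls at 9.48, and control array 2 stood apart at the top. The difference was -0.24 on the log2 scale, with a 95% interval of -0.46 to -0.01 (SE 0.0976, n = 4 each), and did not pass over all genes (limma adjusted p = 0.217). Without control replicate 2 the difference was -0.16.

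Relb encodes a subunit of the alternative pathway, which answers to lymphotoxin and CD40 signals and is itself an NF-κB target. Its values were 6.39, 6.41, 6.22 and 5.98 in mutants, against 6.28, 6.03, 5.79 and 5.82 in controls. The groups overlapped, since mutant array 4 lay below 2 control arrays. The difference was 0.27, with a 95% interval of -0.06 to 0.60 (SE 0.145), and did not pass (limma adjusted p = 0.328).

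Nfkb2 encodes the precursor of the DNA-binding subunit that pairs with Relb, and its uncut form acts as an inhibitor. Its brighter probe set read 6.31, 5.90, 5.90 and 5.90 in mutants, against 5.80, 5.90, 5.80 and 5.90 in controls, so that mutant array 1 alone exceeded the rest. The dimmer one was more spread, at 6.23, 5.79, 5.79 and 4.35 in mutants against 5.62, 4.80, 4.75 and 4.65 in controls, with the lowest value of all on mutant array 4. The differences were 0.16 (95% interval -0.10 to 0.41, limma adjusted p = 0.465 over genes) and 0.58 (95% interval -0.35 to 1.51, limma adjusted p = 0.505 over probe sets). Neither interval excludes 0, and that of the dimmer probe set reaches a 2.86-fold rise.

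Rel encodes the subunit best known from lymphocytes and activated macrophages. Its only probe set lay between 2.18 and 2.19 on all 8 arrays, within 0.5 of the lowest value of the table, and was not tested. Such a value bounds neither group, and no fold is given.

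The inhibitors differed from each other. Nfkbie was read by 2 probe sets. The brighter one, 1458299_s_at, gave 7.45, 7.38, 7.55 and 7.21 in mutants, against 6.61, 6.11, 6.07 and 6.28 in controls. Every mutant array exceeded every control array, with mutant array 4 the lowest of the mutants and control array 1 the highest of the controls. The means were 7.40 ± 0.14 in mutants against 6.27 ± 0.24 in controls (SD, n = 4 a group). They differed by 1.13 with a 95% interval of 0.82 to 1.44, or 1.76-fold to 2.72-fold (SE 0.137, limma adjusted p = 0.00197). Singly over all probe sets its limma adjusted p was 0.00333. The rise was modest among the changed genes, since 203 of the 304 risen genes rose by more and their median was 1.84. The dimmer probe set, 1431843_a_at, stayed under the filter of 4 on all arrays and was not tested. Its values were 3.53, 3.65, 3.30 and 3.04 in mutants and 2.93, 2.89, 3.0 and 2.82 in controls, also with all mutant arrays above all control arrays.

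Nfkbia encodes IκB alpha, the inhibitor that is remade fastest after NF-κB activation. Its brightest probe set read 12.74, 12.72, 12.64 and 12.37 in mutants, against 12.79, 12.83, 12.68 and 12.94 in controls. The groups overlapped only through control array 3, which lay below 2 mutant arrays, and mutant array 4 was the lowest of all. The difference was -0.19, with a 95% interval of -0.44 to 0.06 (SE 0.109, limma adjusted p = 0.352). Of its 4 other probe sets, the 3 bright ones differed by -0.07, -0.04 and 0.03, with limma adjusted p over probe sets from 0.851 to 0.943. The sign of these 3 changed with the scaling of the arrays, and their 95% intervals together ran from -0.43 to 0.37. The dim one, 1420089_at, ranged from 6.59 to 7.78 in mutants and from 6.48 to 8.38 in controls and differed by -0.67 (95% interval -1.66 to 0.33, limma adjusted p = 0.475).

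The difference of Nfkbie was set against that of Nfkbia as a description, chosen after the values were seen, so no test of it is reported. Within each array the log2 gap between their brightest probe sets was taken, and it was 1.32 larger in mutants than in controls. The Nfkbia probe set used, at -0.19, had the most negative difference of its bright ones. The others differed by -0.07, -0.04 and 0.03, and a gap taken from them would be smaller. Whether Nfkbia itself was constant cannot be read from this gap.

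Nfkbiz encodes an atypical, nuclear IκB protein that helps NF-κB switch on a set of late inflammatory genes. Its brightest probe set read 10.16, 10.06, 9.78 and 9.80 in mutants, against 9.73, 10.41, 10.15 and 10.54 in controls, and the groups overlapped, with control array 1 the lowest of all and control array 4 the highest. The difference was -0.25 (95% interval -0.68 to 0.17, limma adjusted p = 0.461). The other probe sets, 1457404_at and 1448728_a_at, differed by -0.60 and -0.29 with wider spread, and did not pass either (limma adjusted p = 0.465 and 0.680 over probe sets).

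Tnfaip3 encodes the ubiquitin-editing enzyme that shuts off signalling upstream of the IKK kinases. It read 6.19, 6.26, 6.20 and 5.89 in mutants, against 6.18, 6.53, 6.11 and 6.49 in controls. The groups overlapped, with control arrays 2 and 4 at the top and mutant array 4 at the bottom. The difference was -0.19, with a 95% interval of -0.49 to 0.11, or 0.711-fold to 1.08-fold (limma adjusted p = 0.449). A second probe set lay between 2.18 and 2.21 on all arrays and was not tested.

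Bcl3, another nuclear IκB protein, binds DNA-bound dimers of the short subunits and can turn them into activators. Its level was 5.20, 5.12, 5.20 and 5.12 in mutants, against 4.85, 5.16, 4.79 and 5.12 in controls, and the groups overlapped. The difference was 0.18 (95% interval -0.06 to 0.42, limma adjusted p = 0.372).

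**Figure D2:**
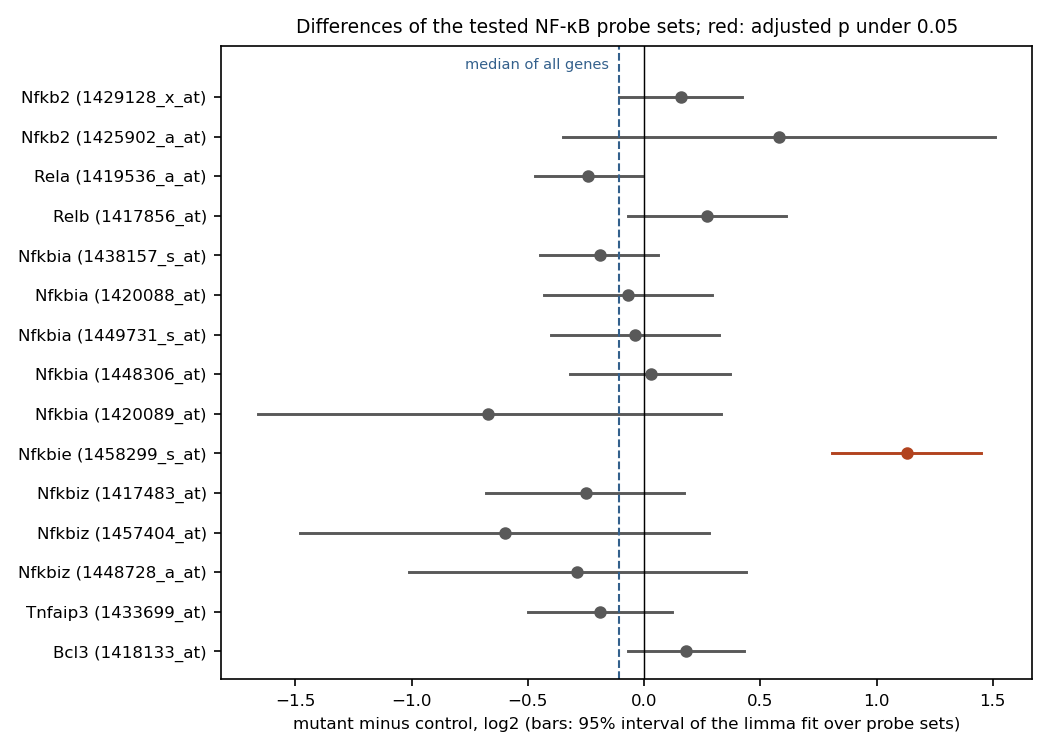
Difference of mutant minus control arrays (horizontal axis, log2) for the 15 tested probe sets, with bars for the 95% interval of limma's fit over all probe sets, a solid line at 0 and a dashed line at the median of all tested genes, -0.11. Nfkbie lies at 1.13 with an interval of 0.81 to 1.45, and the upper end of the interval of Rela lies at -0.01, with all other intervals crossing 0.

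Some arrays stood at the edge of their group over many member probe sets. Among the 15 tested probe sets, mutant array 1 was the highest mutant array for 9 and mutant array 4 the lowest for 8. On the control side, control array 2 was the highest for 7 and control array 3 the lowest for 8. These counts are of probe sets, not of members, since 5 of the 15 read Nfkbia, 3 read Nfkbiz and 2 read Nfkb2. Repeated readings of 1 transcript are not independent. For Rela and Bcl3, mutant arrays 1 and 3 read alike to the digits given. Over these probe sets the same arrays often marked the upper and lower ends of their group.

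The machinery that feeds NF-κB was examined next, from lists of receptors and adaptors, kinases, ubiquitin enzymes and further inhibitors. Of 17 receptor and adaptor genes tested, 1 rose and none fell, with 11 positive and 6 negative differences and a list median of 0.07. Negative differences made up 35.3% of this list, where 69.1% of all tested genes had one and their median was -0.11. The gene that rose was Tlr3, the endosomal receptor of double-stranded RNA, which is also known as an interferon-induced gene. Its level was 9.76 ± 0.19 in mutants against 8.26 ± 0.05 in controls (SD, n = 4 a group). The groups did not overlap and differed by 1.5 (SE 0.108, limma adjusted p = 6.42e-05). Myd88, the adaptor of most other Toll-like receptors and of the interleukin-1 receptor, differed by 0.43 and did not pass (limma adjusted p = 0.0762); it is named here after its values were seen.

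Of 11 IKK and upstream kinase genes tested, none rose and 1 fell, with a list median of -0.23. It was Tab1, a partner protein of the kinase that activates IKK, at 5.65, 5.62, 5.36 and 5.6 in mutants against 6.38, 6.63, 6.03 and 6.05 in controls. The groups did not overlap, and the difference was -0.72 (SE 0.150, limma adjusted p = 0.0337). That call held in only 6 of 19 alternative settings, while averaging its probe sets gave -0.36 (limma adjusted p = 0.0645, in a range from 0.0033 to 0.114 over the alternatives). Of the 11 kinase genes 8 had a negative difference, or 72.7%, where 69.1% of all tested genes did. Without overlap were 4 of the 11, where 14.5% of all tested genes did not overlap. Besides Tab1 these were Map3k3 (-0.32, limma adjusted p = 0.0521), Map3k7 (-0.62, limma adjusted p = 0.167) and Ikbkg (-0.23, limma adjusted p = 0.19). Map3k3, Map3k7 and Ikbkg did not pass and are named here after their values were seen.

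Of 9 ubiquitin enzyme genes tested, 4 had a positive and 5 a negative difference, with a list median of -0.04. Negative ones were 55.6%, against 69.1% of all tested genes. Of these 9 genes, 1 rose and none fell. It was Rnf31, the catalytic subunit of the ligase that builds linear ubiquitin chains on the IKK scaffold. It read 7.16, 7.26, 6.85 and 6.44 in mutants, against 6.23, 5.79, 5.91 and 6.10 in controls. Mutant array 4 came closest to the controls. The difference was 0.92 (SE 0.191, limma adjusted p = 0.0326), and the call held in 9 of 19 alternative settings, with adjusted p from 0.00224 to 0.111. Birc3, a ubiquitin ligase of the TNF receptor complex and a classical NF-κB target, differed by 0.44 without overlap and did not pass (limma adjusted p = 0.0508); it was chosen after its values were seen.

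None of the 17 other IκB proteins and negative regulators tested passed in either direction in limma, and the list median was -0.06. At an unadjusted p under 0.05 were 2 of them, where 2363 of all 11446 tested genes had such a p. These were Itch (-0.32, limma adjusted p = 0.0572) and Otud7b (-0.45, limma adjusted p = 0.0858), both without overlap and named after their values were seen. In this list 6 differences were positive and 11 negative, or 64.7%, where 69.1% of all tested genes had a negative difference. The 2 brightest were Commd1, which promotes removal of Rela from chromatin, and Rnf11, a part of the Tnfaip3 complex. Commd1 averaged 10.67 ± 0.22 in mutants against 10.56 ± 0.12 in controls (SD, n = 4 a group), and Rnf11 differed by -0.06, a value whose sign changed with the scaling of the arrays.

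Known target genes of NF-κB were placed in 2 lists, one of inflammation at large and one of genes best known as also induced by interferon. The split is not strict, and genes of the first list, Ccl2 among them, may answer to interferon too. Of 26 inflammatory targets tested, 1 rose and none fell, with a list median of 0.17. The one that rose was the monocyte-attracting chemokine Ccl2, at 10.80, 10.33, 10.58 and 9.42 in mutants against 8.55, 8.18, 7.69 and 7.98 in controls. The difference was 2.19, or 4.55-fold (SE 0.307, limma adjusted p = 0.00472), without overlap. A further 11 inflammatory targets with a probe set were too dim to test, among them Il6, Sele and Csf2. The following inflammatory genes, named after their values were seen, did not pass. Icam1, an adhesion molecule that leukocytes bind, averaged 9.59 ± 0.32 in mutants against 9.30 ± 0.24 in controls. Vcam1, which has the same role, averaged 10.77 ± 0.14 in mutants against 10.31 ± 0.14 in controls (limma adjusted p = 0.0539). Tnf itself averaged 5.14 ± 0.44 in mutants against 4.75 ± 0.41 in controls (SD, n = 4 a group). Lower in mutants were Cxcl1 (-0.53, limma adjusted p = 0.26) and Cd83 (-0.44, limma adjusted p = 0.234). Of the 26 inflammatory targets tested, 16 had a positive and 10 a negative difference. Negative ones were thus 38.5% of this list, against 69.1% of all tested genes, whose median difference was -0.11.

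All 13 tested targets shared with interferon rose, with a median difference of 4.70. Of these, Ccl5, Cxcl9 and Cd274 were under the filter of 4 on every control array, passed it only through the mutants and have no measured control level. The other 10 all rose, with a median of 4.52, and with the 3 dim genes at the bound that a control level of 4 gives the median was 4.25. In this list the chemokine Cxcl10 was higher by 9.13 (SE 0.317), the immunoproteasome subunits Psmb8 by 5.12 (SE 0.106) and Psmb9 by 5.07 (SE 0.195), and the peptide transporter Tap1 by 4.79 (SE 0.0961), with limma adjusted p up to 1.47e-06. Cxcl10 read 4.03, 5.13, 3.88 and 5.16 on control arrays 1 to 4, near the filter of 4, so its difference rests on a dim control level. Averaging over probe sets gave 1.20 for Tap1 and 3.37 for Psmb8, and both still passed. Of 24 interferon response genes that are not in the target lists, 23 rose and none fell, with a median of 4.81. In this list 5 genes, Ifit1, Mx1, Mx2, Oasl1 and Zbp1, were under the filter on every control array. Of the other 19, 18 rose, with a median of 3.68, and with the 5 dim genes at their bound the median was 4.40. These 2 lists were chosen with earlier results of these data known, so their direction is no independent evidence. Whether the 2 target lists differ in how often they rose was not tested.

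**Figure D3:**
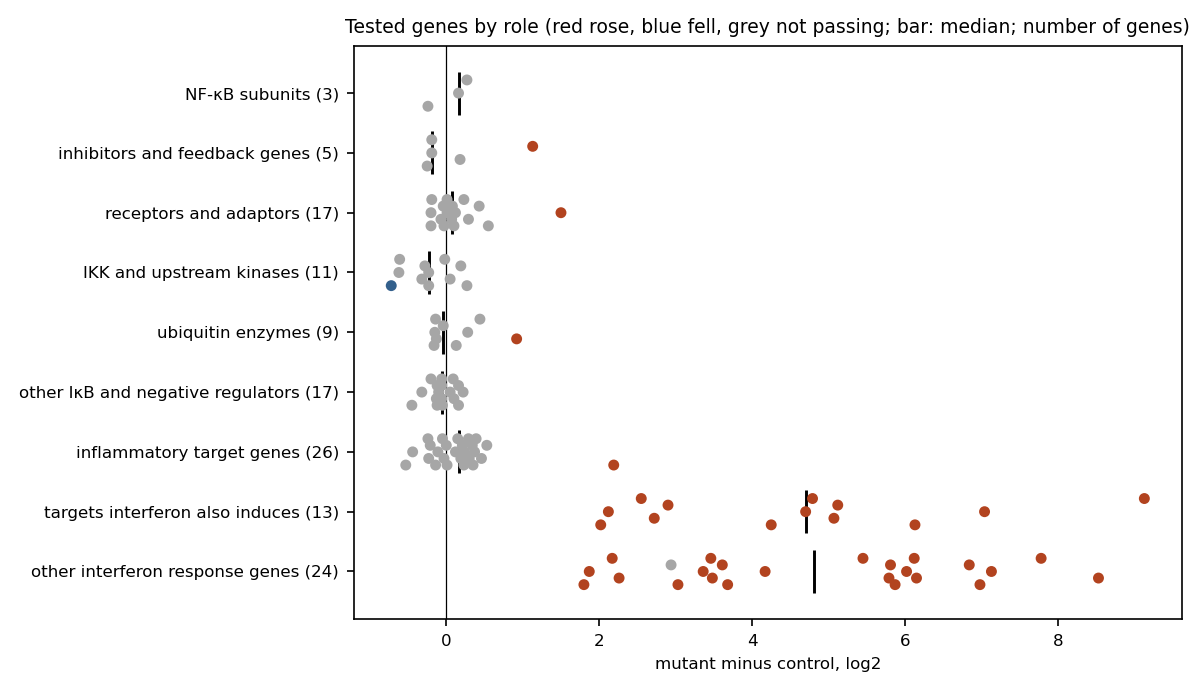
Difference of mutant minus control arrays (horizontal axis, log2) for each tested gene, 1 point per gene, by role, with the number of genes in brackets, red for genes that rose, blue for genes that fell, grey for genes that did not pass and a black bar at each list's median. The 7 upper lists have medians from -0.23 to 0.17 with 4 red points and 1 blue one in all, and the 2 lists of interferon-induced genes have medians of 4.70 and 4.81, or 4.25 and 4.40 with genes under the filter on every control array at their bound.

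Levels of other cells' markers moved with Nfkbie across the groups. Microglia and macrophage markers rose in 12 of 16 tested and fell in none, with a median difference of 2.11. Their mean log2 level was 9.78, 9.47, 9.76 and 8.91 on mutant arrays 1 to 4, against 7.88, 7.12, 7.47 and 8.03 on control arrays 1 to 4. Among them Ctss, a lysosomal protease, rose by 2.26, C1qa, a complement component, by 2.38, the Fc receptor chain Fcer1g by 2.18 and the microglial protein Aif1 by 3.31. The microglial genes Tmem119, Trem2 and Itgam were too dim to test. The mean log2 level of the 24 interferon response genes was 11.10, 11.26, 10.97 and 10.54 on mutant arrays, against 6.36, 6.24, 6.37 and 5.85 on control arrays. For Nfkbie, the microglia list and the interferon list alike, mutant array 4 was the lowest of the mutants. This order was not particular to them. Mutant array 4 was also the lowest mutant array for the endothelial list (11.03) and for Nfkbia (12.37), and the highest for the neuron list (8.78). Among the controls the highest array was control array 1 for Nfkbie, control array 4 for the microglia list and control array 3 for the interferon list. The part of these markers in the rise of Nfkbie was not tested.

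Markers of other blood cells did not pass the test. Of 8 lymphocyte genes with a probe set, 7 were too dim to test, and the remaining one, the B-cell receptor chain Cd79b, averaged 5.53 ± 0.60 in mutants against 5.0 ± 0.46 in controls (SD, n = 4 a group) and did not pass (limma adjusted p = 0.399). Of 8 neutrophil genes 4 were tested, none passed in limma and none had an unadjusted p under 0.05, and their mean log2 level was 5.97 to 6.76 in mutants and 6.06 to 6.78 in controls. None of the 8 neuron and 8 astrocyte markers tested passed in limma. At an unadjusted p under 0.05 were 2 of the neuron markers, where 2363 of all 11446 tested genes had such a p.

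**Figure D4:**
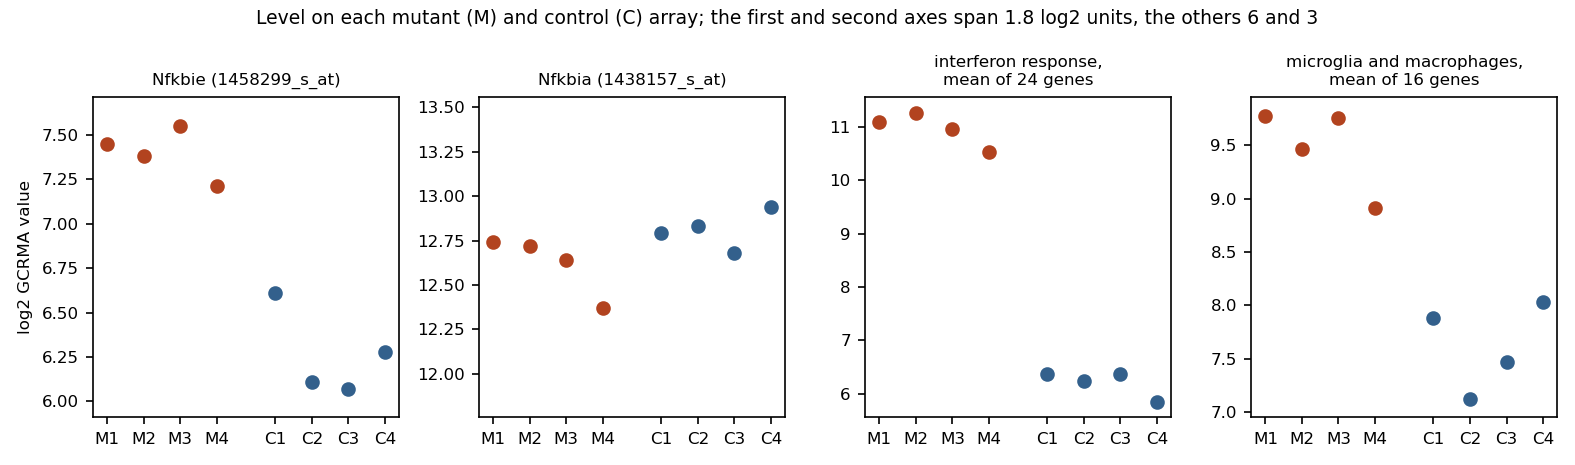
Log2 GCRMA value (vertical axes, of differing span) on each mutant array (M1 to M4, left) and control array (C1 to C4, right) for the brightest probe sets of Nfkbie and Nfkbia, and for the mean of 24 interferon response genes and of 16 microglia and macrophage markers. Nfkbie lies at 7.21 to 7.55 in mutants and 6.07 to 6.61 in controls, Nfkbia overlaps between the groups, and both lists lie higher on every mutant array.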

How the data were processed

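RNA from 8 separate brains was measured on 1-colour Affymetrix arrays, after labelling of 6 ug of total RNA, per the labels' protocols. The deposited log2 values, 1 per probe set, come from GCRMA, which the submitters' processing notes name without version or options. GCRMA corrects background by probe sequence and normalizes arrays to each other, and dim probe sets collect at a floor. Their range, 2.18 to 16.49, shows the log2 scale. Arrays carry no counts; their number limits precision. Some values were identical to the last digit on 2 or more arrays, in 16% of the tested probe sets and in 2 of the 15 of the members (Nfkb2 and Bcl3).

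Probe sets were named from the platform annotation: 34958 had 1 symbol, 932 several and 9211 none here. Each of 18194 genes was represented by its brightest probe set, and genes above 4 on fewer than 4 arrays were left out. Mutant and control arrays, grouped by the titles, were compared with limma 3.58.1 (lmFit, then eBayes; R 4.3.3), two-sided and with no covariate, with Benjamini-Hochberg adjustment over all tested genes, and separately over all tested probe sets. The sources used here name no litter, day or scan date, and batches were therefore not tested.

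The members, the lists and the tests were chosen with earlier results of these data known. All members are named with every probe set; from each other list come the genes that passed with the smallest p, at most 4, and the 2 brightest of a list in which none passed. Added to these are Pdgfrb, genes that were dim on some arrays, and genes said to be named or chosen after their values were seen. The fitting was checked on simulated data. Promoter windows came from RefSeq, 250 bases before each start.

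Alternatives were no filter, a filter at 6, a second quantile normalization, 2 ways of centring arrays, a replicate block, the mean of probe sets, a preference for probe sets without suffix, array weights, a robust eBayes fit with trend, a threshold of 0.01 and each array left out in turn.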

Additional observations from a re-analysis of the deposited data

Results flagged for a closer look

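In 4 of the 30 groups of 4 arrays formed by the tested member probe sets, a lone array lay far from the other arrays of its group. Chance marks about 1 in 20 groups of independent, normally distributed values. That rate need not hold here, since several probe sets read the same gene and some values were identical between arrays. The share over all tested probe sets was not computed. Mutant array 1 read 6.31 for the brighter probe set of Nfkb2, with the other mutants at 5.90. Control array 1 read 5.62 for its dimmer probe set, with the other controls from 4.65 to 4.8. Control array 2 read 9.82 for Rela, with the other controls from 9.48 to 9.50, and 12.39 for the Nfkbia probe set 1448306_at, with the other controls from 12.01 to 12.03. None of these probe sets passed the test.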

How the results depend on the processing

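Nfkbie kept its direction and its call in all 19 alternatives of the gene fit, with differences from 0.80 (mean of its probe sets) to 1.27 and limma adjusted p from 5.95e-05 to 0.0222, and in all 17 of the probe set fit (adjusted p up to 0.0397). No other member passed in any alternative except under array weights, which gave mutant array 3 a weight of 6.6 and mutant array 1 one of 0.357. There 3 member genes were called (Relb at 0.34 and Nfkbiz at -0.51 besides Nfkbie) and 6 member probe sets, 3 higher and 3 lower, along with 61 genes of the pathway lists against 40 and 3158 of all genes (895 higher, 2263 lower) against 524 (304 higher, 220 lower). No tested member gene changed sign in an alternative that was run. Over all genes 259 were called with the replicate block (221 higher, 38 lower), 246 at a threshold of 0.01 (209 higher, 37 lower), and 264 to 540 with an array left out, with the fewest without mutant replicate 3 (264), control replicate 4 (306) and control replicate 3 (322). Centring on the median of the tested genes, added after seeing the data, gave 336 higher and 115 lower, and a second quantile normalization 327 and 162. Pdgfrb differed by 0.09 (limma adjusted p = 0.876) where probe sets without a suffix were preferred, which takes its other probe set. Same-numbered mutant and control arrays correlated from -0.479 to 0.303 in their deviations, and no mutant array correlated best with its own number. With 4 arrays a group this cannot exclude that the numbers pair brains, which the labels do not state. Under the replicate block Nfkbie still passed (limma adjusted p = 0.0222) and no other member did. The cause of the changed counts was not tested. Members near the floor (Rel, the dimmer probe sets of Nfkbie and Tnfaip3) are not resolved at this signal.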

Other observations

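Genes of the lists for interferon and for other cell types gave the following log2 differences of mutant minus control arrays. The antiviral gene Ifit2 was higher by 5.45 and the interferon regulatory factor Irf7 by 6.84, both past the test in limma. Irf7 read 4.54, 3.66, 4.14 and 3.88 on control arrays 1 to 4, near the filter of 4, so its difference rests on a dim control level. Ifit1 and Zbp1 were under the filter of 4 on every control array and passed it only through the mutants, so that only a bound against a control level of 4 is given. Ifit1 was at least 232-fold higher and Zbp1 at least 68-fold higher in mutants. The endothelial transcription factor Erg fell by 0.63 and the pericyte gene Higd1b rose by 0.85 (limma adjusted p = 0.00561 and 0.041). The call of Higd1b held in only 9 of 19 alternatives (limma adjusted p from 0.00134 to 0.130), and that of Erg in 18, lost under the replicate block (limma adjusted p = 0.061). Of genes that did not pass, the neuronal Map2 and Stmn2 differed by 0.13 and 0.60, the astrocyte and radial glia genes Fabp7 and Gja1 by 0.13 and -0.09, and the neutrophil genes S100a8 and S100a9 by 0.32 and -0.01.

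Among the inflammatory target genes too dim to test, Saa3, an acute-phase protein that macrophages and endothelial cells make on inflammatory stimulation, was bright on some mutant arrays. It read 6.10, 5.25, 5.77 and 3.80 in mutants, against 3.35, 3.69, 3.80 and 3.33 in controls. Since 3 arrays exceeded 4, it fell short of the filter and has no test. The interleukin gene Il1b, which was bright enough to test, read 6.26, 4.52, 4.98 and 3.52 in mutants, against 4.93, 4.67, 4.14 and 4.64 in controls. Its highest and lowest values were both among the mutants, and its difference of 0.23 did not pass (limma adjusted p = 0.832). Irf1, a transcription factor induced by both NF-κB and interferon, read 9.28, 9.46, 9.29 and 8.68 in mutants, against 6.66, 7.44, 7.16 and 7.0 in controls. Irf1 was tested among the targets shared with interferon and rose by 2.12 (limma adjusted p = 0.000575). Saa3, Il1b and Irf1 were chosen after their values were seen.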
